A study of Homo sapiens with 2 samples.

Results

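Binding sites of ZMYND8, a chromatin reader with bromodomain, PHD, PWWP and MYND domains, were examined in the 2 zinc finger gene clusters at 19p12 and 19q13.43. The members were all ChIP-seq summits in chr19:20000001-24600000 (19p12, 4.6 Mb) and chr19:56500000-59128983 (19q13.43, 2.63 Mb) on hg19, whatever their score. They numbered 115 of 46309 summits, 114 from parental and 1 from ZMYND8 knockout spheres. Both libraries came from mammospheres, floating cultures enriched for stem-like cells, of MDA-MB-231, an established triple-negative breast cancer line, grown in MammoCult medium and precipitated with the same ZMYND8 antibody. Each genotype had 1 library (wildtype parental cells with 45924 summits, and ZMYND8 knockout cells with 385), and the sources used here do not give the number of knockout clones or the read depth. There is therefore no replicate error, and all intervals are 95% intervals that cover counting error only. Each summit carries the authors' score, a −log10 p or q value that is read within a list only.

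KRAB zinc finger proteins bind DNA through arrays of zinc fingers and recruit the corepressor TRIM28, which brings histone H3K9 methylation to their targets, many of them transposable elements. Their genes arose by tandem duplication and lie in clusters on chromosome 19. The 19p12 cluster holds ZNF91 and ZNF93, known repressors of retrotransposons. The 19q13.43 cluster holds ZNF, ZSCAN and ZIM genes, the imprinted PEG3 gene and, near the telomere, TRIM28 itself. ZMYND8 has its own zinc finger protein partners, ZNF592, ZNF687 and ZNF532, whose genes lie on other chromosomes.

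The makeup of the clusters was taken from the order of genes in RefSeq (assembly GRCh38.p14), used for names and neighbours only, with run ends picked from general knowledge of the bands. From ZNF93 to ZNF254 in 19p12, 33 of 35 protein-coding genes were named as zinc finger genes (94.3%). From NLRP5 to the end of the long arm in 19q13.43 it was 64 of 88 (72.7%), and on the remainder of chromosome 19 it was 165 of 1328 (12.4%).

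The zinc finger promoters of the clusters differed in base composition, and the sequences below show a promoter of each with the median number of CG pairs in its run. Beside them stand A1BG, the only gene of the clusters for which an hg19 position was used here, and ZNF497, its distal neighbour. Each is the RefSeq promoter (GRCh38.p14), 250 bases before to 50 after the start on the gene's strand, minus for ZNF100, A1BG and ZNF497 and plus for ZNF264. Capitals mark CG pairs, which number 10 in ZNF100, 23 in ZNF264, 9 in A1BG and 34 in ZNF497.
ZNF100: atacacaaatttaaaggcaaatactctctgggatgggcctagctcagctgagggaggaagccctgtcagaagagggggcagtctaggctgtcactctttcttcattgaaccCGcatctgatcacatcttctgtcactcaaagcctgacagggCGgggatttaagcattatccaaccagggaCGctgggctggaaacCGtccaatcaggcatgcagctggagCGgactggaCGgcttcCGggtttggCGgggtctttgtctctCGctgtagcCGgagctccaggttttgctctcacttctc
ZNF264: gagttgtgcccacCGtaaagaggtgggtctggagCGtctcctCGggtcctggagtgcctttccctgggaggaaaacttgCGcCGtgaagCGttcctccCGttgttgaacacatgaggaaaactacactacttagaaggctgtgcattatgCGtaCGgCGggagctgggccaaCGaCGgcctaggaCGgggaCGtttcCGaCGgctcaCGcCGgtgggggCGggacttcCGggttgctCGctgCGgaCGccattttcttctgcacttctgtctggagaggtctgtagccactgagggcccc
A1BG: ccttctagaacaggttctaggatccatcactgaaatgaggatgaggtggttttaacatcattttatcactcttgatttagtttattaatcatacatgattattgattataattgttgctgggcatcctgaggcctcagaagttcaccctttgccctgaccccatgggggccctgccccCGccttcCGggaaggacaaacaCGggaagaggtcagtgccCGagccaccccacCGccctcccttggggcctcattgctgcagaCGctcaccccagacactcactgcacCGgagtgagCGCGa
ZNF497: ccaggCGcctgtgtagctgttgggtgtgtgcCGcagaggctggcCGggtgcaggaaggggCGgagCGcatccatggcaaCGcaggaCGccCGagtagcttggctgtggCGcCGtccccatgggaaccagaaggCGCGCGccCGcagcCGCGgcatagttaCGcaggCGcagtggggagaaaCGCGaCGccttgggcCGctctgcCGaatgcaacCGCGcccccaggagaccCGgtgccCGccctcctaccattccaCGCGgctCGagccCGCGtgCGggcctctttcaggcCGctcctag

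In the 27 of 33 zinc finger genes of the 19p12 run with a promoter in the table, CG pairs per 300 bases ran from 8 (ZNF737, ZNF626) to 16 (ZNF492, ZNF730, ZNF726), with a median of 10. In 56 of 64 from the 19q13.43 run they ran from 2 (ZSCAN4, a gene of the early embryo) to 42 (ZNF667, ZSCAN1), with a median of 23. The 144 matched zinc finger promoters elsewhere on chromosome 19 had a median of 21, and all 27305 promoters of the table a median of 14. At least 10 CG pairs were found in 66.7% of the 19p12 promoters (exact binomial interval 46.0 to 83.5) and in 98.2% of those of 19q13.43 (90.4 to 99.95), against 56.0% over the whole table. The range in 19p12 was thus narrow and low, while that of 19q13.43 reached over most of the chromosome's range.

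**Figure D1:**
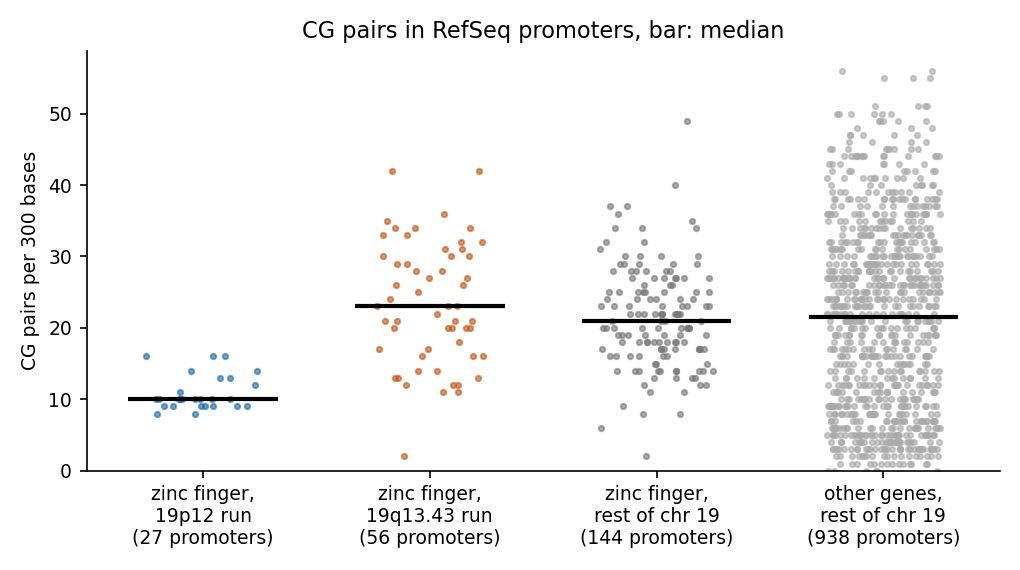
CG pairs per 300 bases (y axis) in RefSeq promoters of 4 gene sets (x axis); each point is a promoter and the bar the median. The 27 zinc finger promoters of 19p12 lie between 8 and 16, below the medians of 23, 21 and 21.5 in the other sets.

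Some promoters within a cluster also shared longer words, so they cannot be taken as independent of each other. Whether the sharing comes from gene duplication was not tested. The 12-base word found in most promoters of the 19p12 run, on either strand, was CTGTCACTCAGG, which contains no CG. It was present in 18 of 27 there (66.7%), in 0 of 56 zinc finger promoters of 19q13.43, in 5 of 144 on the rest of the chromosome and in 0.136% of all promoters. For 19q13.43 the word was GGCGGGACTTCC, present in 14 of 56, in 0 of 27 in 19p12 and in 0.33% of all promoters. Both words were chosen for being common in their own run, so these shares are a description and not a test. The table's promoters were not placed on hg19 and are not matched to single summits.

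The first comparison asked how densely the clusters carry ZMYND8 summits in parental cells. The 19p12 cluster held 22 parental summits, or 4.78 per Mb (exact Poisson interval 3.0 to 7.24), which is 1 summit per 209 kb. The 19q13.43 cluster held 92, or 35.0 per Mb (28.2 to 42.9), 1 per 28.6 kb. The remaining 51.9 Mb of chromosome 19 held 2880, or 55.5 per Mb (53.5 to 57.6). Both zinc finger clusters were thus sparser than the chromosome around them, by 11.6 times in 19p12 (exact conditional interval of the ratio 7.65 to 18.5) and by 1.59 times in 19q13.43 (1.29 to 1.97). Between the clusters the density differed 7.32-fold (4.56 to 12.2). For 19q13.43 the deficit was not seen beyond counting error among stronger summits, with a ratio to the rest of 0.74 (0.492 to 1.07) at scores of at least 5. These intervals treat summits as independent. The spread over windows below shows that they are not, in 19q13.43 or on the rest of the chromosome. Intervals that involve either, including every ratio to the rest, are therefore too narrow.

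Few parts of the chromosome were as empty as 19p12. Among the 19 bands p12 ranked 16th by density, above q12, which carries the same variable Giemsa stain, and the centromeric p11 and q11, which held no parental summit. Band q12 had 11 summits in 3.8 Mb, 2.89 per Mb, and the ratio of p12 to q12 was 1.73 with an interval of 0.803 to 3.94, so they could not be told apart. Band q13.12, ranked 15th, was also sparse, with 22 summits at 7.86 per Mb (4.92 to 11.9). That interval overlapped the one of band p12 (3.13 to 7.57). The highest score in q13.12 was 5.92, and 4 of its 22 summits reached 5. In q12 the highest was 6.7, and 1 of its 11 summits reached 5. The neighbouring band p13.11, by contrast, held 130.0 summits per Mb, 25.9 times the density of p12 (16.9 to 41.8). Band q13.43 ranked 10th. It was denser than q13.41 (19.5 per Mb, ratio 1.66, 1.15 to 2.45) and sparser than its neighbour q13.42 (55.2 per Mb, ratio 0.589, 0.449 to 0.769). The last summit before the 19p12 cluster lay at 19977615 with a score of 1.45, and the next one inside it at 20164077 with a score of 4.6. On the far side 19p12 ended at 24270187 (score 3.27), and the next parental summit lay beyond the centromere at 29405349 (score 3.79). The nearest summits on either side of the proximal edge of 19q13.43 were at 56199256 (score 1.45) and 56599425 (score 2.14).

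**Figure D2:**
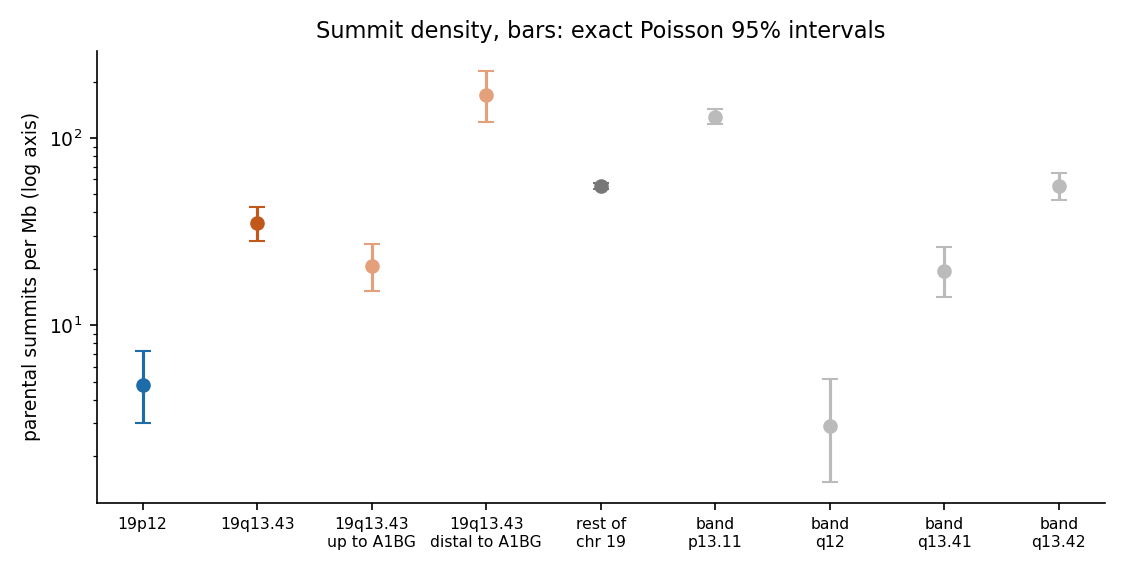
Parental summits per Mb (y axis, log) in the clusters, in 19q13.43 divided at the start of A1BG, in the rest of chromosome 19 and in 4 bands; points are densities and bars exact Poisson 95% intervals. 19p12 (4.78) sits near band q12 (2.89), and the stretch distal to A1BG (169) near p13.11 (130).

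Counted per gene, the clusters were closer to each other than counted per Mb. There were 0.629 summits per protein-coding gene in 19p12 and 1.05 in 19q13.43, against 2.17 on the rest of the chromosome. The gene runs come from RefSeq order and their ends need not coincide with the hg19 spans, so these values carry no interval. They also do not say that the summits lie at the genes, since an hg19 annotation was not used here. Mappability and copy number in these cells were not measured, and their part in the low count of 19p12 was not tested.

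Summits in 19p12 were also weak. Their scores ran from 2.14 to 5.5 with a median of 3.45. Ties were common everywhere, with 11 different values among these 22 summits, 43 among 92 in 19q13.43 and 435 among 2880 on the rest. A score of at least 5 was reached by 1 of 22 (4.55%, exact binomial interval 0.115 to 22.8), against 29.7% of the whole parental list and 26.9% (25.3 to 28.5) of the rest of chromosome 19. None reached the highest scoring 25% of the list, a score of at least 5.68 that 26.1% of the list met with ties. The interval for 0 of 22 goes up to 15.4%, below the 21.2% (19.8 to 22.8) of the rest of the chromosome. No summit in 19p12 reached 10, against 6.27% of the whole list, and the exact interval of 0 of 22 reaches 15.4%, so no difference was detectable at that score.

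In 19q13.43 the scores ran from 1.97 to 25.4 with a median of 3.79, the same median as the rest of the chromosome. At least 5 was reached by 29 of 92 (31.5%, 22.2 to 42.0) and at least 10 by 5 (5.43%, 1.79 to 12.2), and 25 (27.2%, 18.4 to 37.4) belonged to the highest scoring 25%. The rest of the chromosome, with 26.9%, 4.76% and 21.2%, lay inside each of these intervals. The 19q13.43 summits were therefore fewer per Mb than elsewhere on chromosome 19, but their scores were not distinguishable from those elsewhere. The upper part of the score range was missing in 19p12. It was not alone in this, since the sparse bands q12 and q13.12 also held no summit that reached 10.

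The highest summit of 19p12 lay at 24239588, near its centromeric end, with a score of 5.5 and rank 12692 of the parental list. Next came 21442985 and 22011700 with 4.71 each, 20164077 with 4.6 and 23578111 with 3.98. Another 5 positions shared a score of 3.79, at 21444021, 21769617, 23076729, 23344349 and 23472768, where ties allow no order. These 10 positions were spread over the whole cluster, and only the summits at 21442985 and 21444021 lay close together, 1036 bp apart.

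The highest summit of 19q13.43 lay at 58897841 with a score of 25.4 and rank 140 of 45924. A pair at 58694597 and 58694960, 363 bp apart, followed with scores of 13.6 and 12.4. The others that reached 10 were 59069794 (score 12.4) and 58514424 (10.02). Below them stood 58873726 with a score of 9.75, 59066120 with 7.92, 58911870 with 7.85, and 57752177 and 59055935 with 7.77 each. Of these 10 summits 9 lay in the distal 657 kb of the cluster, and 57752177 was the exception.

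**Figure D3:**
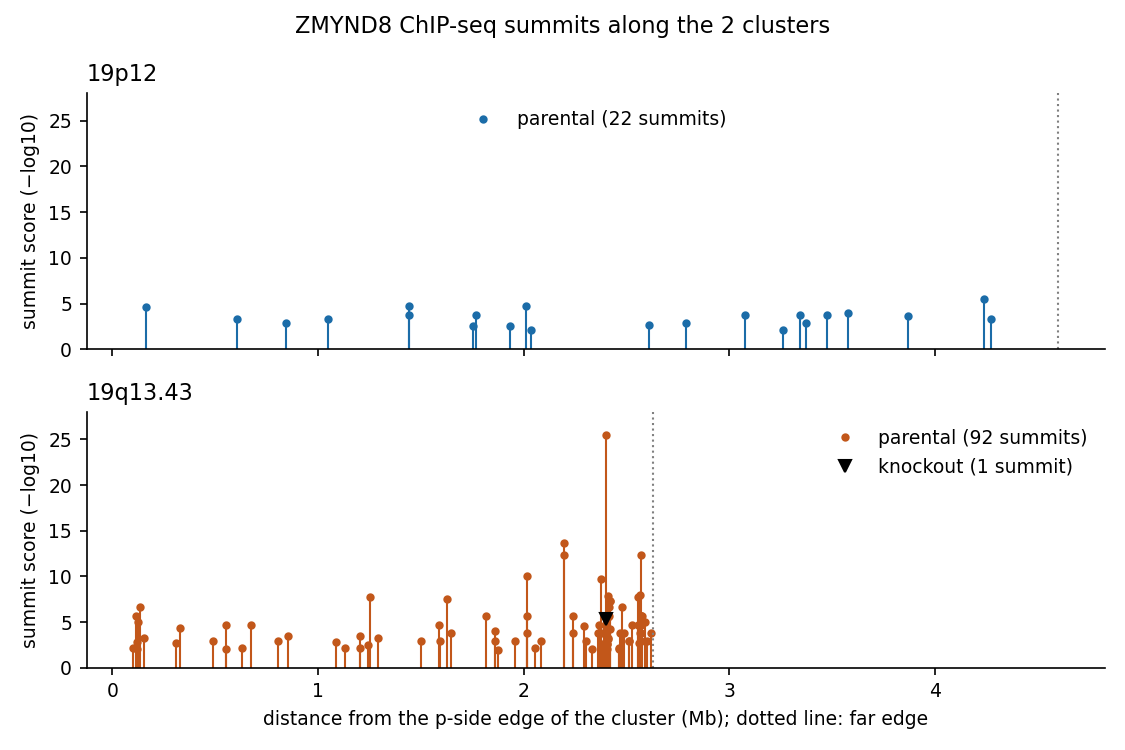
Score of each summit (y axis, −log10) against its distance from the p-side edge of the cluster (x axis, Mb), for 19p12 above and 19q13.43 below; circles are parental summits, the triangle the knockout summit. The 22 summits of 19p12 stay at or below 5.5, and those of 19q13.43 crowd toward the telomere, where the highest reaches 25.4.

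The clusters differed in how summits were laid out along them. Divided into 4 parts of equal length from the p side, 19p12 held 4, 7, 6 and 5 summits, or 3.48, 6.09, 5.22 and 4.35 per Mb, and all 4 intervals overlapped. The parts of 19q13.43 held 13, 10, 10 and 59. The last part reached 89.8 summits per Mb (68.3 to 116), while the others had 19.8 (10.5 to 33.8), 15.2 (7.3 to 28.0) and 15.2 (7.3 to 28.0). Of the 25 summits in the highest scoring 25% of the list, 21 lay in the last part, which held 59 of the 92 summits. Away from its distal part 19q13.43 was also sparse. Its other parts were each denser than any part of 19p12, though with such small counts most of the intervals overlapped. Counted together up to A1BG, which takes in some of the last part, 19q13.43 had 4.32 times (2.56 to 7.49) the density of 19p12.

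**Figure D4:**
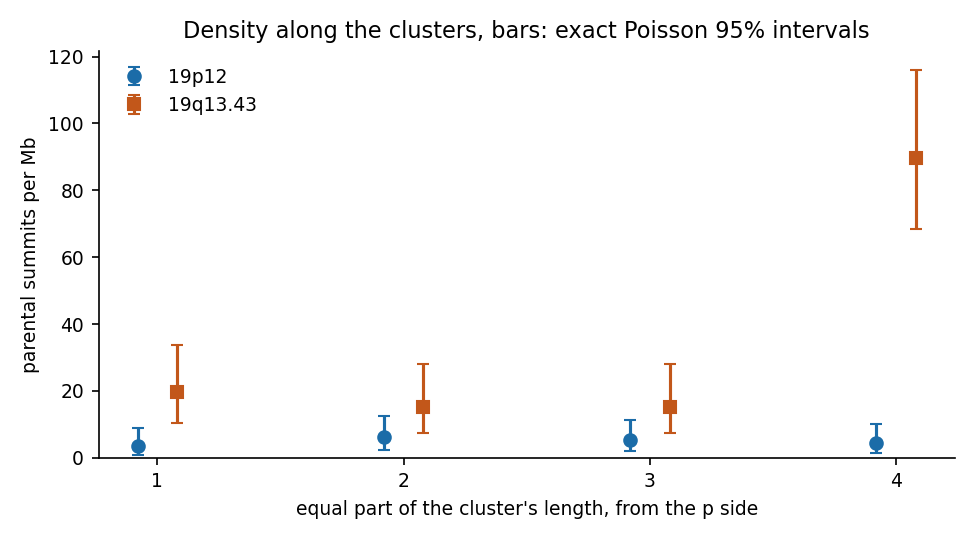
Parental summits per Mb (y axis) in 4 equal parts of each cluster's length counted from the p side (x axis); bars are exact Poisson 95% intervals. 19p12 stays between 3.48 and 6.09, and 19q13.43 rises to 89.8 in its last part.

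Counts in full 100 kb windows gave the same picture. In 19p12, 29 of 46 windows (63.0%, 47.5 to 76.8) held no parental summit, 12 held 1 and the other 5 held 2. The variance of the counts was 0.998 times their mean, close to the 1 that independent placement gives. In 19q13.43 only 5 of 26 windows (19.2%, 6.55 to 39.4) were empty and 6 (23.1%, 8.97 to 43.6) held 5 or more, with a variance 6.95 times the mean. On the rest of the chromosome without bands p11 and q11, 23.4% of 478 windows (19.7 to 27.5) were empty and 41.0% (36.6 to 45.6) held 5 or more, with a ratio of 10.1.

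The 3 densest windows of 19q13.43 were its last full windows, from 59000000 (18 summits), 58900000 (17) and 58800000 (13). No window of 19p12 held more than 2. Its widest empty stretches ran from 22034144 to 22610659 (577 kb), from 20164078 to 20607405 (443 kb) and from 21046065 to 21442984 (397 kb). Those of 19q13.43 ran from 57351878 to 57587404 (236 kb), from 57791984 to 57999390 (207 kb) and from 58144707 to 58318033 (173 kb).

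**Figure D5:**
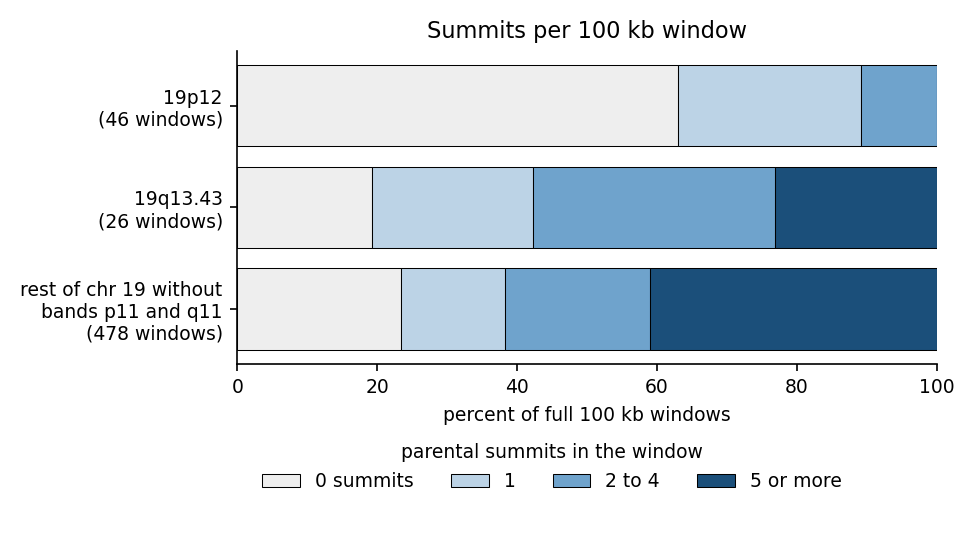
Share of full 100 kb windows (x axis, percent) with 0, 1, 2 to 4 or 5 and more parental summits, for each cluster and for the rest of chromosome 19 without bands p11 and q11. Empty windows make up 63.0% in 19p12 against 19.2% in 19q13.43 and 23.4% in the rest.

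Neighbouring summits were far apart in 19p12 and close in 19q13.43. The median gap was 180 kb in 19p12, where 13 of 21 gaps exceeded 100 kb, and 5.89 kb in 19q13.43, where 7 of 91 did. When summits with gaps of at most 1000 bp were joined into sites, every site in 19p12 had a single summit. In 19q13.43, 35 of 92 summits (38.0%, 28.1 to 48.8) shared a site with another, against 0 of 22 in 19p12 (up to 15.4%) and 42.8% (41.0 to 44.6) on the rest of the chromosome. Counted as sites, 19q13.43 held 71 and 19p12 held 22. The largest site had 6 summits over 2461 bp, from 59069472 to 59071932, and a highest score of 12.4. The other sites with over 2 summits had 3 each and lay from 58513694 to 58515282, from 58911391 to 58912329 and from 58918888 to 58920597.

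A1BG, which encodes a plasma glycoprotein made mainly in the liver, gave the distal run a place among named genes. On hg19, a transcript of A1BG runs on the minus strand from 58858172 to 58864865, and a longer transcript from 58859832 to 58874214. The A1BG promoter printed above was not matched to the start of either. The start of the shorter transcript had no parental summit within 1 kb. The start of the longer transcript, on the side of ZNF497, had 2, both downstream and inside the transcript. They lay 488 bp (58873726, score 9.75) and 941 bp (58873273, score 3.79) from it. The hg19 position of ZNF497 was not used, so whether ZNF497 starts there too was not settled. These summits are therefore not assigned to either gene. Further summits inside the longer transcript were at 58867385 (score 4.71) and 58861994 (score 3.79), the last also inside the shorter transcript. The strongest of these 4 summits was the most distal, and no knockout summit lay within 1 kb of either start.

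Between that start and the end of the chromosome, a stretch of 255 kb singled out after its summits had been seen, lay 43 of the 92 summits (46.7%) in 9.69% of the cluster's length. The density there was 169 per Mb (122 to 227), and 15 of 43 summits (34.9%, 21.0 to 50.9) belonged to the highest scoring 25%, an interval that includes the 26.1% of the whole list. Up to A1BG the cluster held 49 summits, 20.6 per Mb (15.3 to 27.3), of which 10 (20.4%, 10.2 to 34.3) belonged to that class. RefSeq order places 15 protein-coding genes distal to A1BG, 8 of them zinc finger genes by name (ZNF497, ZNF837, ZNF584, ZNF324B, ZNF132, ZNF324, ZNF446 and MZF1). Among the others are TRIM28, the corepressor of KRAB zinc finger proteins, CHMP2A, an ESCRT-III subunit, UBE2M, a conjugating enzyme for NEDD8, and the fatty acid transporter and bile acid ligase gene SLC27A5.

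Per protein-coding gene there were 2.87 summits distal to A1BG and 0.671 up to and including it, the latter beside 0.629 in 19p12. Genes were divided by RefSeq order, but summits at the start of the longer A1BG transcript on hg19. The cuts need not coincide, and ZNF497, counted as distal, may lie on either side of the summit cut. Both values are therefore rough. The 8 zinc finger promoters distal to A1BG in RefSeq order held 20 to 35 CG pairs, with a median of 33. The median was 21 in the 48 matched zinc finger promoters up to A1BG and 10 in 19p12. Promoters of the other genes were not compared, since only 18 of the 24 in the 19q13.43 run were in the table. Genes are not independent replicates, and the part of promoter composition in the number of summits was not tested.

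The second comparison asked what remained of these sites without ZMYND8. The knockout list held 0 summits in 19p12 (up to 0.802 per Mb), 1 in 19q13.43 (0.38 per Mb, 0.00963 to 2.12) and 34 on the rest of the chromosome (0.655 per Mb, 0.454 to 0.915). Set against the parental list this was 0 per 100 parental summits in 19p12 (0 to 15.4), 1.09 in 19q13.43 (0.0275 to 5.91) and 1.18 on the rest (0.819 to 1.65). With so few knockout summits neither cluster could be told apart from the rest of the chromosome.

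The knockout summit lay at 58898145, with a score of 5.37 and rank 134 of 385. It was 304 bp from the highest parental summit of the cluster, at 58897841 with a score of 25.4. Parental summits with a knockout summit within 200 bp numbered 0 of 22 in 19p12 and 0 of 92 in 19q13.43, with exact intervals up to 15.4% and 3.93%, against 0.636% of the whole list and 0.799% (0.507 to 1.2) on the rest of chromosome 19. Within 1000 bp it was 2 of 92 (2.17%, 0.264 to 7.63), against 1.21% of the list. The next knockout summit on the chromosome was 2910712 bp away. The only knockout summit of the clusters lay next to their highest parental summit, though too far from it to count as shared at 200 bp. Lying near a parental summit was common: on the rest of the chromosome 29 of 34 knockout summits (85.3%) had one within 500 bp. The lists come from separate calls at unknown depth, and the difference in their length here has no replicate check.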

How the data were processed

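ZMYND8 ChIP-seq was run on 1 parental and 1 ZMYND8 knockout library, grouped by the genotype in the labels. Chromatin from an enzymatic kit was sonicated before precipitation, per the labels' protocols. Per the submitters' processing notes, the build was hg19 and MACS2 2.0.10, Picard 1.127, Bowtie2 2.2.3 and FastQC 0.11.2 were used; control, threshold and read depth were not given there. The authors deposited a summit list per library, unpooled, with a −log10 p or q value as score (lowest 1.31 and 1.46).

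Positions are 1-based hg19. Densities carry exact Poisson, ratios exact conditional binomial and shares Clopper-Pearson intervals, all at 95%, computed with scipy 1.17.1, pandas 2.3.3 and numpy 2.4.6 in Python 3.11.15; the counting steps were tested on simulated data. Bands came from circlize 0.4.16, A1BG transcripts from the hg19 sample in GenomicFeatures 1.54.1. RefSeq promoters were matched by gene identifier, taking the first listed start. The members, spans and lists were chosen with earlier results of these data known. Named summits are the 10 highest of each cluster, every knockout summit, and the densest and emptiest stretches; named genes have an hg19 position or stand in the gene runs. The gene runs, promoter counts, words and the division at A1BG were added after the lists were seen. Summits were not assigned to zinc finger genes, for want of an hg19 annotation.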

Additional observations from a re-analysis of the deposited data

How the results depend on the processing

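No paired analysis was possible because each genotype has 1 library. Of 38 alternatives for the main results 34 held, in that a ratio's interval stayed on its side of 1 or a share stayed inside its interval; many of these could hardly move. The density of 19q13.43 over the rest of chromosome 19 was 0.74 for summits scoring 5 or more and 0.72 for those scoring 10 or more, where the intervals, from 29 and 5 summits in the cluster, included 1; the cause was not tested. The share of 19q13.43 summits in sites of several was 23.9% with gaps of up to 500 bp and 56.5% with 3000 bp, which follows from the setting. Without the stretch distal to A1BG, an alternative added after seeing the data, 19q13.43 had 0.372 (0.274 to 0.493) of the density of the rest and 4.32 times (2.56 to 7.49) that of 19p12. Limited to scores of 5 or more, 19q13.43 stood 50.7 times (8.41 to 2070) above 19p12, which kept 1 summit; at 10 or more, with 5 summits against 0, the exact interval began at 1.6. The density of 19p12 over the rest ran from 0.0146 (scores of 5 or more) to 0.116 (merged summits), and at 10 or more, with 0 summits in 19p12, its interval reached 0.308. Near an A1BG start lay 1 summit within 500 bp and 4 within 5000 bp. Taking the start with the most CG pairs per gene, added likewise, left the promoter medians at 10 and 23.5. Promoter windows for zinc finger genes were not run, since they need an hg19 annotation. Unknown depth limits every comparison of the lists.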
